A study of Rattus norvegicus with 6 samples.

Results

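The genes described here encode the collagens and the enzymes and chaperone that modify, fold, cut and crosslink them, as measured in rat sensory neurons. Members were protein-coding genes picked by symbol: all numbered collagen chains, the lysyl oxidases (Lox, Loxl1 to Loxl4), the prolyl 4-hydroxylase alpha subunits (P4ha1 to P4ha3), the lysyl hydroxylases (Plod1 to Plod3), the collagen chaperone Serpinh1, the procollagen proteinase Bmp1 and its enhancers Pcolce and Pcolce2. The rule found 56 of the 25689 genes in the count table, of which 10 encode fibrillar collagens, 8 basement membrane collagens, 24 other collagens and 14 processing proteins. Col1a2, Col6a3, Col21a1 and Pcolce2 were not analysed here. The RNA came from sensory neurons of the ganglia of the dorsal root (DRGs) at levels L1-L2, isolated from SHRs (spontaneously hypertensive rats, an inbred strain with high blood pressure). In 3 samples the fat around the kidneys had been removed by surgery (perirenal adipose tissue ablation, PRATA), and in 3 the rats had a sham operation. All 6 samples carry the same labels for strain, tissue, wild type genotype and an age of 6 to 8 weeks, while the study's methods give an older age for the SHRs. The comparison asks which collagen genes differed in these neurons after PRATA. The tissue was dissociated with trypsin and collagenase, and neurons were kept apart from glial cells by how fast each adhered to the dish. The labels do not say whether each sample came from 1 animal or from pooled animals, so p-values measure the spread between these samples only.

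Collagens are secreted proteins whose chains wind around each other into a helix rich in glycine and hydroxyproline. Fibrillar collagens build the tensile fibrils of connective tissue, which in a ganglion lie in the capsule and between nerve cells, whereas type IV collagens form the sheet-like network of basement membranes around vessels, Schwann cells and satellite glia. Each chain is hydroxylated and chaperoned in the endoplasmic reticulum, trimmed at its ends after export, and crosslinked outside the cell by lysyl oxidases.

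Total counts ranged from 5892967 in sham replicate 2 to 15226952 in sham replicate 1, so 3 counts stood for 0.207 to 0.468 CPM (counts scaled to a common library size, here by edgeR's TMM method). Sham replicate 2, the shallowest library, lay within the PRATA range for members such as Col4a1 and Serpinh1. PRATA replicate 3 and sham replicate 1 stood apart from the other samples by the copy of the 7SL RNA that took their reads: Rn7sl1 held 92.0% and 94.1% of 7SL reads in these samples and 45.3% to 47.4% in the other 4. This split crosses the groups, and values without that pair are given for the classes and for each member called. All 18 sensory neuron markers examined passed the filter on low counts, and their summed level was 9764 to 21340 CPM per sample.

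Collagen genes differed in both directions, and no member passed the adjusted threshold. Two-sided edgeR quasi-likelihood tests with Benjamini-Hochberg adjustment ran over 14919 genes, which included 50 of the 56 members. At an unadjusted p under 0.05, 7 of the 50 members (14%) were lower after PRATA, beside 10.1% of all genes tested, and 2 (4%) were higher, beside 8.19%. Requiring also a log2 fold change beyond 1 left 4 lower members (8%), beside 3.23% of all genes, and 2 higher members (4%), beside 1.17%. At an adjusted p under 0.05 there were 0 members, as over all genes (0%), and the smallest adjusted p of a member was 0.156. On the same 14919 genes, DESeq2 called 4 members and 728 genes at that threshold, limma voom with quality weights 3 members and 1173 genes, and limma-trend 0 members and 0 genes. DESeq2 gave Col24a1 an unadjusted p of 0.0019 but no adjusted p, so its adjustment ran over fewer genes than the others. In 3 members all PRATA values were under all sham values (6%, beside 11.2% of all genes), and in 3 they were above (6%, beside 11.6%). With 50 members, these counts are few, and their place beside the background moved with the samples used.

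The fitted log2 fold change of PRATA relative to sham was negative in 35 of the 50 members and positive in 15, with a median of -0.24, while the median over all genes was 0.02. By class the median was -0.50 in fibrillar collagens, -0.40 in basement membrane collagens, -0.21 in processing genes and -0.05 in other collagens. Single samples moved these medians: without sham replicate 1 they were 0.16, -0.03, -0.04 and 0.34 in the same order, and without PRATA replicate 1 the other collagens stood at 0.08 and the basement membrane collagens at -0.13. The medians in the 4 samples other than PRATA replicate 3 and sham replicate 1 were -0.18, -0.47, -0.04 and 0.26.

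The share called moved with single samples among the members and among all genes. Lower members were 2 without sham replicate 1 (3.85%, beside 8.91% of all genes) and 2 without PRATA replicate 1 (3.77%, beside 5.44%). They were 4 without sham replicate 3 (7.55%, beside 5.57%) and 14 without sham replicate 2 (27.5%, beside 14.1%). The number of higher members was 2 to 4 over the samples left out (3.77% to 7.69%, beside 3.47% to 13.4%), with 4 without sham replicate 1 (7.69%, beside 6.48%). In the 4 samples outside the 7SL pair, 6 members were lower (11.5%, beside 6.9%) and 5 higher (9.62%, beside 5.98%).

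**Figure D1:**
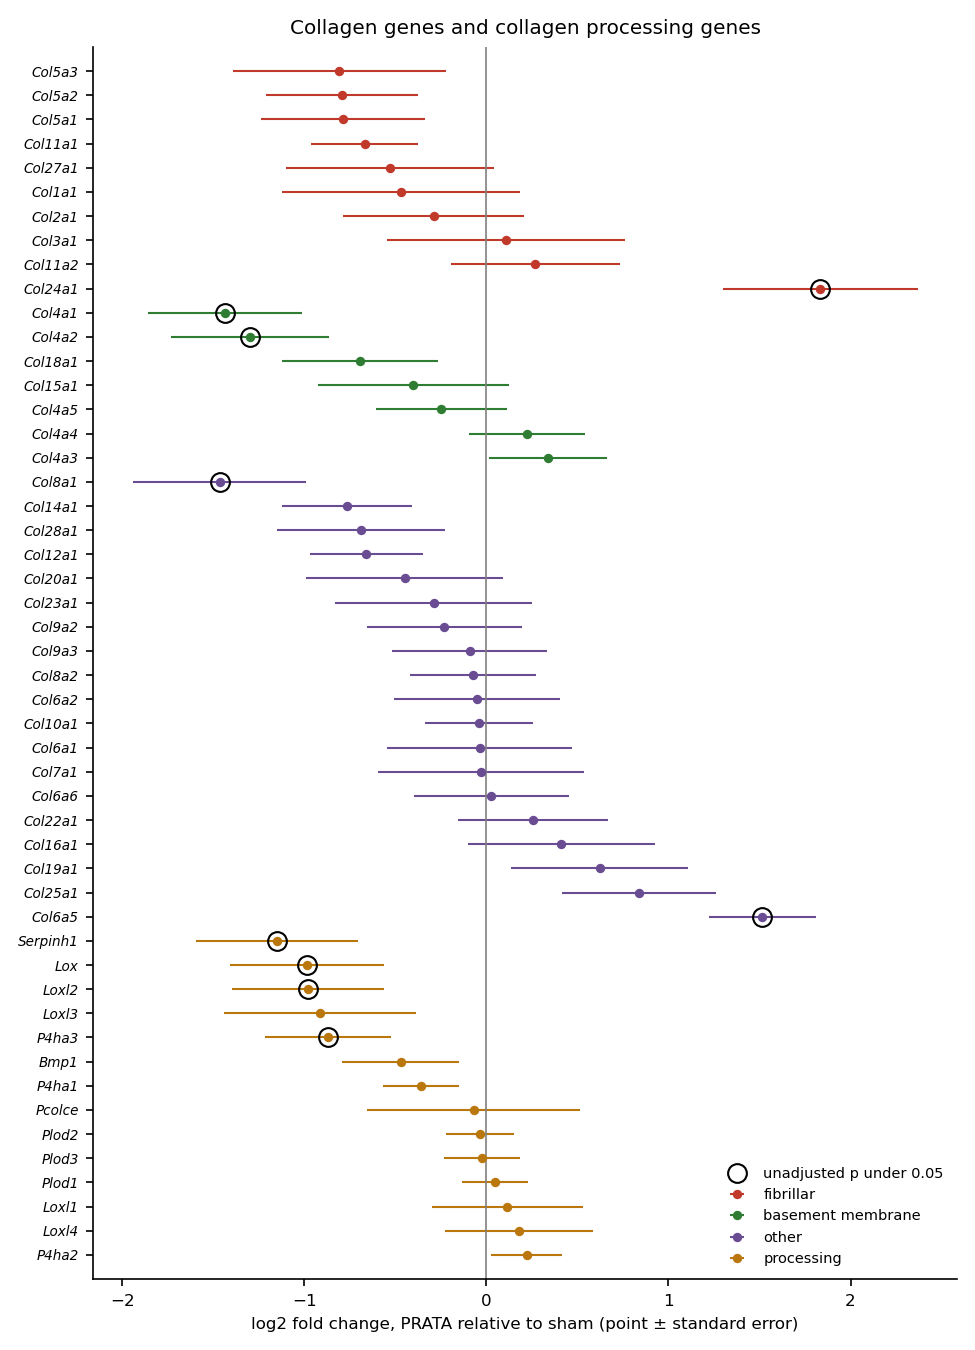
Log2 fold change of PRATA relative to sham for the 50 members tested, sorted within each class, with points for the edgeR estimate, bars for its standard error and rings for an unadjusted p under 0.05. Fold changes run from -1.47 in Col8a1 to 1.83 in Col24a1, and the ringed genes are 7 to the left of 0 and 2 to the right.

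Among the basement membrane collagens, Col4a1 and Col4a2, which encode the chains of the most widespread type IV collagen, were lower after PRATA, while Col4a3, Col4a4 and Col4a5, chains of type IV networks found in fewer tissues, did not pass the threshold. Col4a1 and Col4a2 lie head to head on rat chromosome 16, with Col4a2 on the minus strand and start sites 77 bases apart in RefSeq. The stretch between both starts is shown because these genes share it and were lower together. It spans chr16:84885521-84885596 of GRCr8, is read 5′ to 3′ on the strand of Col4a1, holds 76 bases with a GC content of 78.9%, and capitals mark GGGCGG read on either strand.
Col4a1-Col4a2: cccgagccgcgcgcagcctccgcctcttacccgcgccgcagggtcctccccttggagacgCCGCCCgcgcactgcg

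Col4a1 (ENSRNOG00000016281) had 237, 402 and 343 CPM in PRATA replicates 1, 2 and 3 and 1005, 391.6 and 1262 CPM in sham replicates 1, 2 and 3. Sham replicates 1 and 3 were far above all other samples, and sham replicate 2 fell inside the PRATA range, so the groups overlapped. The mean was 327 ± 83.5 CPM after PRATA and 886 ± 447 CPM after the sham operation (SD, n = 3 each), and the log2 fold change was -1.44 with a standard error of 0.42 (edgeR, unadjusted p = 0.00905, Benjamini-Hochberg adjusted p = 0.175). This gene kept an unadjusted p under 0.05 in all 18 other settings of the analysis. Its edgeR Benjamini-Hochberg adjusted p was 0.0291 without sham replicate 2, the sham sample inside the PRATA range. With a block for the replicate number it was 0.462, and it was 0.27 to 0.551 with any sample other than sham replicate 2 left out. Without sham replicate 2, 721 of all 15438 genes tested were at an adjusted p under 0.05. In the 4 samples outside the 7SL pair the log2 fold change of Col4a1 was -1.39.

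Col4a2 (ENSRNOG00000023972) had 86.2, 132 and 104 CPM after PRATA and 307, 103 and 382 CPM after the sham operation. The order of the samples resembled that of its neighbour: sham replicates 1 and 3 were high and sham replicate 2 sat among the PRATA samples. Its log2 fold change was -1.30 ± 0.43 (SE), with an edgeR Benjamini-Hochberg adjusted p of 0.201. The unadjusted p of Col4a2 was 0.0171 with all samples, 0.0769 without sham replicate 3, 0.0623 without PRATA replicate 1 and 0.0666 in the 4 samples outside the 7SL pair. Without sham replicate 2, where 721 genes passed the adjusted threshold, the edgeR Benjamini-Hochberg adjusted p of Col4a2 was 0.0278.

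Col15a1 and Col18a1 encode the multiplexin collagens that bridge basement membranes to the matrix beneath, and neither passed the unadjusted threshold. Col15a1 had 23.6, 54.0 and 113 CPM after PRATA and 125, 54.2 and 73.5 CPM after the sham operation, with overlapping groups and a log2 fold change of -0.40 ± 0.53 (SE). Col18a1 had 50.7, 94.2 and 82.4 CPM after PRATA and 169, 50.4 and 148 CPM after the sham operation. Sham replicates 1 and 3 were again the highest samples of Col18a1, sham replicate 2 was the lowest, and the log2 fold change was -0.69 ± 0.43 (SE). Of the chains of the other type IV networks, Col4a3 gave a log2 fold change of 0.34 ± 0.32 (SE), Col4a4 of 0.22 ± 0.32 and Col4a5 of -0.25 ± 0.36. Col4a6 did not pass the filter, with 1 to 16 counts per sample.

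The 10 fibrillar collagens held 0 lower and 1 higher member at an unadjusted p under 0.05, beside 10.1% and 8.19% of all genes. Col1a1, the major chain of type I collagen, had 105, 280 and 819 CPM after PRATA, against 821, 387 and 459 CPM after the sham operation. PRATA replicate 3 was as high as the highest sham sample, and the spread within PRATA covered almost the whole range of both groups. Col1a1 had a log2 fold change of -0.47 ± 0.65 (SE), with an edgeR Benjamini-Hochberg adjusted p of 0.731, and without PRATA replicate 3 it was -1.53, with an unadjusted p of 0.0191. Among the 4 samples outside the 7SL pair, Col1a1 was lower after PRATA by an unadjusted p of 0.0315 and a log2 fold change of -1.14.

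Col3a1, the chain of type III collagen, had 109, 263 and 760 CPM after PRATA and 563, 279 and 209 CPM after the sham operation. PRATA replicate 3 was its highest sample and PRATA replicate 1 its lowest, so the sham samples lay inside the PRATA range. Its log2 fold change of 0.11 ± 0.65 (SE) changed sign in 8 of 18 other settings, with -0.39 in the 4 samples outside the 7SL pair and 0.60 without sham replicate 1.

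The type V collagens, minor chains that co-assemble with type I fibrils, gave similar negative estimates that did not pass the threshold. Col5a1 had 85.2, 125 and 145 CPM after PRATA and 312, 78.0 and 222 CPM after the sham operation. Sham replicates 1 and 3 were the highest samples and sham replicate 2 the lowest, and the log2 fold change of Col5a1 was -0.79 ± 0.45 (SE; edgeR, unadjusted p = 0.118). Col5a2 and Col5a3 had log2 fold changes of -0.79 ± 0.42 and -0.81 ± 0.59 (SE). Col11a1, the type XI counterpart of Col5a1, stood just outside the threshold with an unadjusted p of 0.0532 and a log2 fold change of -0.67 ± 0.30 (SE). Col2a1, Col11a2 and Col27a1, known mainly from cartilage, had log2 fold changes of -0.29, 0.27 and -0.53, each smaller than its standard error.

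Col24a1 (ENSRNOG00000014143), a fibrillar chain with a short interruption in its helix, was the fibrillar collagen that was higher. It had 6.33, 7.01 and 2.29 CPM after PRATA, against 2.14, 0.937 and 1.13 CPM after the sham operation. The groups did not overlap, but PRATA replicate 3 and sham replicate 1 were close, with 29 and 31 counts, and sham replicate 2 held 6 counts. Its log2 fold change was 1.83 ± 0.53 (SE), with an edgeR unadjusted p of 0.00873 and a Benjamini-Hochberg adjusted p of 0.175. In the 4 samples outside the 7SL pair the log2 fold change of Col24a1 was 2.65.

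Of the 24 other collagens, 19 were tested, and 1 was lower and 1 higher at an unadjusted p under 0.05 (5.26% each, beside 10.1% and 8.19% of all genes). Col8a1 (ENSRNOG00000039668) encodes a short chain of the type VIII network that lines vessels and other subendothelial matrix. The 250 bases before its start are printed because it was the lower collagen with the largest log2 fold change and with groups that did not overlap. They span chr11:56246532-56246781 of GRCr8 on the plus strand, and capitals again mark GGGCGG on either strand, which occurs 4 times.
Col8a1: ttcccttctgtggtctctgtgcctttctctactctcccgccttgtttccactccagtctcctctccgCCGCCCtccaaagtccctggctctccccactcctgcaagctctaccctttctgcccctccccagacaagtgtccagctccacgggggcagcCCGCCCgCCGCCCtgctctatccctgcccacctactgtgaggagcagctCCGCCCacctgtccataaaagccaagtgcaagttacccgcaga

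Col8a1 had 3.87, 14.4 and 14.1 CPM after PRATA and 43.5, 20.3 and 26.3 CPM after the sham operation. Every PRATA sample was below every sham sample, with PRATA replicate 1 lowest and sham replicate 1 highest. The mean was 10.8 ± 5.99 CPM after PRATA and 30.0 ± 12.1 CPM after the sham operation (SD, n = 3 each), a log2 fold change of -1.47 ± 0.48 (SE; edgeR, Benjamini-Hochberg adjusted p = 0.194). Its unadjusted p was 0.0151 with all samples and 0.0608 without sham replicate 1, and its log2 fold change was -1.33 in the 4 samples outside the 7SL pair. Col8a2, the partner chain of type VIII collagen, had a log2 fold change of -0.07 ± 0.35 (SE) and overlapping groups.

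Type VI collagen forms beaded filaments around many cell types. Col6a1 had 24.3, 41.4 and 75.4 CPM after PRATA and 83.8, 32.6 and 28.1 CPM after the sham operation, and Col6a2 had 32.5, 63.2 and 83.8 CPM and 105, 43.2 and 37.4 CPM. In both genes PRATA replicate 3 and sham replicate 1 were the highest samples, and the groups overlapped. Their log2 fold changes were -0.04 ± 0.51 and -0.05 ± 0.46 (SE), and each changed sign in 6 of 18 other settings, with 0.12 and 0.25 in the 4 samples outside the 7SL pair and 0.61 and 0.55 without sham replicate 1. Col6a6 had a log2 fold change of 0.03 ± 0.42 (SE), and Col6a4 did not pass the filter, with 1 to 14 counts per sample.

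Col6a5 (ENSRNOG00000010663), an alternative long chain of type VI collagen, was higher after PRATA and had the smallest p of all members, at rank 64 of 14919 genes. The 250 bases before 1 of its RefSeq starts are printed as those of the higher member with the smallest p. They lie at chr8:115462845-115463094 of GRCr8, are written 5′ to 3′ on the minus strand of the gene, and capitals mark CCAAT.
Col6a5: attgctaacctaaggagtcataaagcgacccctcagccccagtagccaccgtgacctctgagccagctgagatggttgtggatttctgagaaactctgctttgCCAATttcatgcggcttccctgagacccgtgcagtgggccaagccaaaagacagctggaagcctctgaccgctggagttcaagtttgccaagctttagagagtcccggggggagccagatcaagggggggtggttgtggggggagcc

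Col6a5 had 75.0, 77.7 and 44.4 CPM after PRATA, against 30.1, 21.7 and 16.9 CPM after the sham operation. All PRATA samples were above all sham samples, with PRATA replicate 3 and sham replicate 1 nearest to the other group. The mean was 65.7 ± 18.5 CPM against 22.9 ± 6.69 CPM (SD, n = 3 each). The log2 fold change was 1.52 ± 0.29 (SE), with an edgeR unadjusted p of 0.000805 and a Benjamini-Hochberg adjusted p of 0.156. Col6a5 kept an unadjusted p under 0.05 in all 18 other settings. Its edgeR Benjamini-Hochberg adjusted p was 0.0566 to 0.55 over the samples left out and 0.461 with a block for the replicate number. In the 4 samples outside the 7SL pair its log2 fold change was 1.98 with an edgeR Benjamini-Hochberg adjusted p of 0.0433. In those 4 samples, 13 of all 14808 genes tested were at an adjusted p under 0.05.

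The fibril-associated collagens, which sit on the surface of larger fibrils, did not pass the threshold. Col12a1 and Col14a1 had log2 fold changes of -0.66 ± 0.31 and -0.77 ± 0.36 (SE), with unadjusted p of 0.0658 and 0.0634. Col16a1 gave 0.41 ± 0.51, Col19a1 0.62 ± 0.49, Col20a1 -0.45 ± 0.54 and Col22a1 0.26 ± 0.41 on the log2 fold change scale. Col9a2 and Col9a3 lay at -0.23 and -0.09, and Col9a1 did not pass the filter, with 2 to 19 counts per sample.

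Of the remaining other collagens, Col25a1, a membrane-spanning collagen of neurons, gave a log2 fold change of 0.84 ± 0.42 (SE) with an unadjusted p of 0.0809. Col23a1, also membrane-spanning, gave -0.29 ± 0.54, and Col13a1 and Col17a1 did not pass the filter, with 4 to 26 and 5 to 18 counts per sample. Col28a1, a collagen known from peripheral nerve, gave -0.69 ± 0.46, and Col7a1, the anchoring fibril chain, and Col10a1, a chain of growth cartilage, gave -0.03 and -0.04. Col26a1 was read 13 times in sham replicate 2 and 2 times in sham replicate 3 and held 0 counts in each of the other 4 samples, so 1 library carried almost all of its reads.

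**Figure D2:**
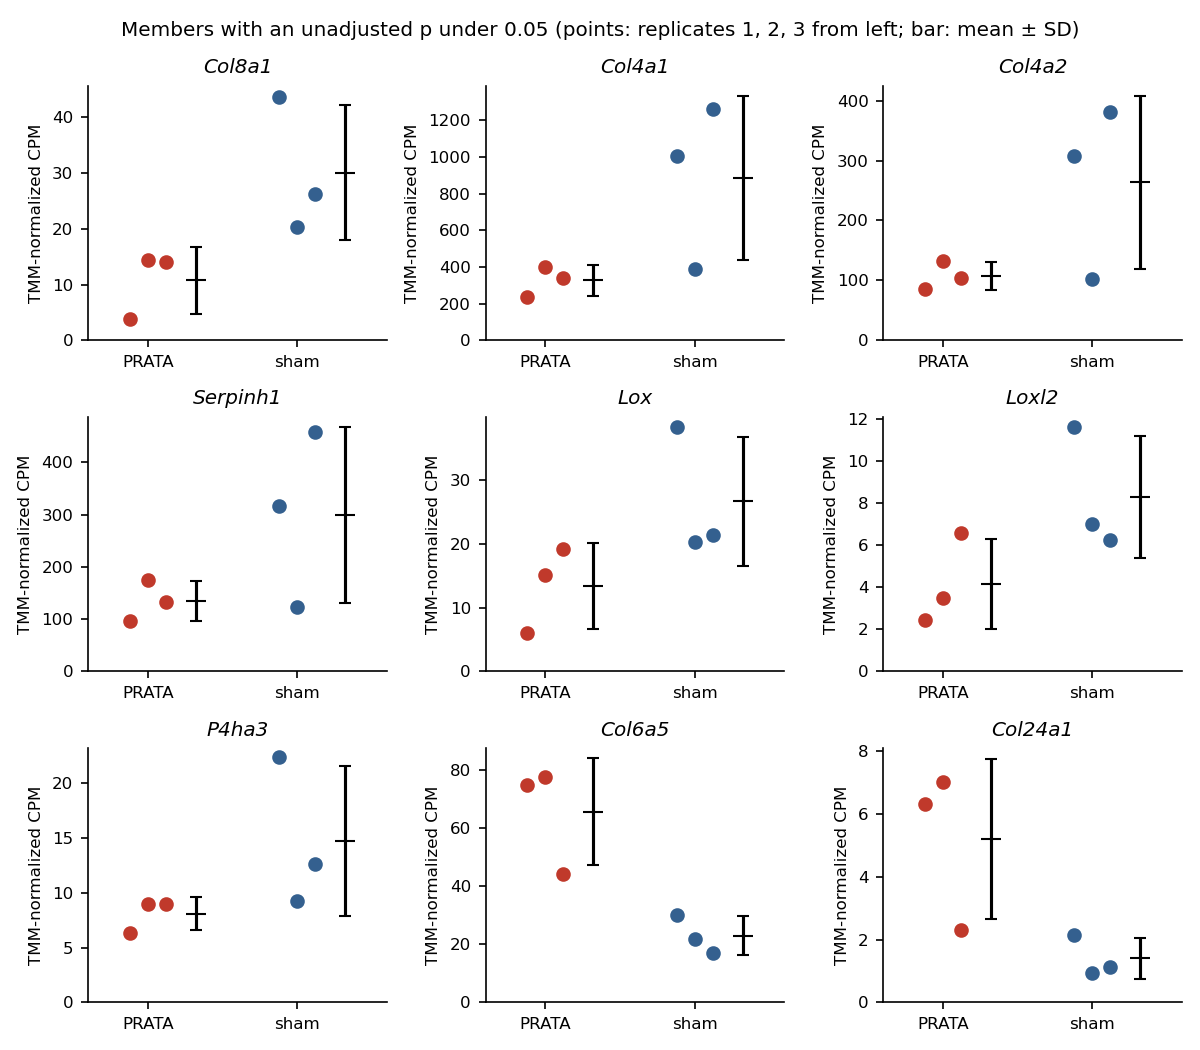
TMM-normalized CPM of the 9 members with an unadjusted p under 0.05, with points for replicates 1, 2 and 3 of each group from left to right and bars for the mean ± SD. Sham replicate 2 lies within the PRATA range in Col4a1, Col4a2 and Serpinh1 and close above it in P4ha3, Lox and Loxl2. The groups do not overlap in Col8a1, Lox, P4ha3, Col6a5 and Col24a1, with narrow gaps in Lox, P4ha3 and Col24a1.

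Among the 14 processing genes, 4 were lower (28.6%, beside 10.1% of all genes) and 0 higher (beside 8.19%) at an unadjusted p under 0.05. No processing gene was called lower without sham replicate 1, without PRATA replicate 1 or with a block for the replicate number. The shares of all genes called lower there were 8.91%, 5.44% and 6.08%. Serpinh1 (ENSRNOG00000016831) encodes HSP47, the chaperone that binds folded procollagen in the endoplasmic reticulum. The 250 bases before its start are printed because it was the processing gene with the largest log2 fold change. They lie at chr1:163062977-163063226 of GRCr8 on the minus strand, and capitals mark GGGCGG.
Serpinh1: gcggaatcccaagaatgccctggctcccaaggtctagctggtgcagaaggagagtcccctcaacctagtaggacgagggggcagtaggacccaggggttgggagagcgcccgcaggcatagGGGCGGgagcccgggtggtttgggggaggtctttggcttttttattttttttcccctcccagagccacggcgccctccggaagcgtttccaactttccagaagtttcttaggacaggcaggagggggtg

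Serpinh1 had 97.2, 175 and 133 CPM after PRATA and 317, 122.7 and 459 CPM after the sham operation. As for Col4a1, sham replicates 1 and 3 were high and sham replicate 2 was inside the PRATA range. The log2 fold change was -1.15 ± 0.44 (SE; edgeR, Benjamini-Hochberg adjusted p = 0.234). Its unadjusted p of 0.0318 depended on single samples: it was 0.149 without sham replicate 3, 0.0658 without sham replicate 1, 0.105 without PRATA replicate 1 and 0.0732 without PRATA replicate 3. Without sham replicate 2, where 721 genes passed the adjusted threshold, the edgeR Benjamini-Hochberg adjusted p of Serpinh1 was 0.0394. In the 4 samples outside the 7SL pair, the log2 fold change of Serpinh1 was -1.11 with an unadjusted p of 0.0871.

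The prolyl 4-hydroxylase alpha subunits, which carry the catalytic site for making hydroxyproline, gave values on both sides of 0. P4ha3 had 6.33, 9.003 and 8.94 CPM after PRATA and 22.4, 9.21 and 12.7 CPM after the sham operation. The groups did not overlap, but sham replicate 2 was only just above PRATA replicate 2, and sham replicate 1 stood far above the rest. P4ha3 gave a log2 fold change of -0.87 ± 0.35 (SE; edgeR, Benjamini-Hochberg adjusted p = 0.243), and its unadjusted p went from 0.0357 to 0.156 without sham replicate 1, 0.104 without PRATA replicate 1, 0.0590 without PRATA replicate 2, 0.0567 without PRATA replicate 3 and 0.172 in the 4 samples outside the 7SL pair.

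P4ha1 had 58.2, 66.2 and 43.7 CPM after PRATA and 77.8, 59.0 and 78.9 CPM after the sham operation. Its groups overlapped through sham replicate 2, and its log2 fold change was -0.36 ± 0.21 (SE; edgeR, unadjusted p = 0.123). P4ha2 had 13.6, 14.98 and 13.7 CPM after PRATA and 12.5, 13.3 and 10.5 CPM after the sham operation. All PRATA samples of P4ha2 were higher, by small steps, and the log2 fold change of 0.22 ± 0.20 (SE) did not pass the threshold (edgeR, unadjusted p = 0.290).

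Plod2, the lysyl hydroxylase that acts on collagen telopeptides, had 31.0, 32.3 and 28.0 CPM after PRATA and 37.6, 26.8 and 28.7 CPM after the sham operation. The groups overlapped, and the log2 fold change was -0.03 ± 0.19 (SE), with a change of sign in 3 of 18 other settings. Plod1 and Plod3, the other lysyl hydroxylases, had log2 fold changes of 0.05 ± 0.18 and -0.02 ± 0.21 (SE).

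Lox, which oxidizes lysines to start crosslinking, had 5.94, 15.1 and 19.1 CPM after PRATA and 38.2, 20.3 and 21.3 CPM after the sham operation. The groups did not overlap, with PRATA replicate 3 close below sham replicate 2 and sham replicate 1 well above the others. The log2 fold change was -0.99 ± 0.42 (SE; edgeR, Benjamini-Hochberg adjusted p = 0.268). The unadjusted p of Lox was 0.0478 with all samples, 0.180 without sham replicate 1, 0.0582 without sham replicate 3, 0.0883 without PRATA replicate 1, 0.0788 without PRATA replicate 2 and 0.0496 in the 4 samples outside the 7SL pair.

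Loxl2, a lysyl oxidase-like enzyme that also acts on type IV collagen, had 2.45, 3.51 and 6.56 CPM after PRATA and 11.6, 7.02 and 6.23 CPM after the sham operation. PRATA replicate 3 lay above sham replicate 3, so the groups overlapped. The log2 fold change was -0.98 ± 0.42 (SE; edgeR, Benjamini-Hochberg adjusted p = 0.267). The unadjusted p of Loxl2 went from 0.0469 to 0.171 without sham replicate 1, 0.0543 without sham replicate 2, 0.113 without PRATA replicate 1 and 0.126 without PRATA replicate 2, and was 0.0237 in the 4 samples outside the 7SL pair. Of the other lysyl oxidase-like genes, Loxl3 gave a log2 fold change of -0.91 ± 0.53 (SE), Loxl1 of 0.12 ± 0.41 and Loxl4 of 0.18 ± 0.41. Bmp1, the proteinase that removes the C-propeptide, gave -0.47 ± 0.32, and Pcolce, its enhancer, gave -0.07 ± 0.59.

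Partners of this machinery that the rule did not include were counted from a list of the pathway. Of 16 tested genes for chain modification, folding and export, 7 were lower and 0 higher at an unadjusted p under 0.05, beside 10.1% lower and 8.19% higher among all genes. Their median log2 fold change was -0.58. Of 5 further procollagen proteinases, 1 was lower and 0 higher, with a median of -0.07, and of 8 tested collagen receptors, 3 were lower and 0 higher, with a median of -0.53. These counts stand beside the same shares of all genes, and lists this short can hold 0 higher genes at the background share. The summed CPM of each of these lists overlapped between the groups, and sham replicates 1 and 3 were the highest samples for the modification and receptor lists. The 6 genes of these lists with the smallest p are described next.

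Ddr2, a receptor tyrosine kinase for fibrillar collagen, had 15.6, 20.95 and 27.5 CPM after PRATA and 52.7, 29.0 and 78.0 CPM after the sham operation. Itga1, the alpha subunit of an integrin that binds type IV collagen, had 25.6, 38.8 and 27.8 CPM and 77.0, 35.1 and 93.3 CPM. The groups of Ddr2 did not overlap, those of Itga1 did through sham replicate 2, and in both genes sham replicates 1 and 3 were highest. Their log2 fold changes were -1.32 and -1.16, with edgeR Benjamini-Hochberg adjusted p of 0.169 and 0.180. Tll1, a proteinase related to Bmp1, had a log2 fold change of -0.94, and the folding enzymes Fkbp10 and Fkbp14 had -0.89 and -1.08. P3h2, a prolyl 3-hydroxylase known to act on type IV collagen, had -1.27. In Tll1, Fkbp10 and Fkbp14 the groups did not overlap. Tll1 had 4.52 to 7.51 CPM after PRATA and 8.90 to 12.0 CPM after the sham operation. The ranges were 4.78 to 8.53 and 11.2 to 14.4 CPM for Fkbp10, and 3.40 to 6.93 and 7.18 to 13.8 CPM for Fkbp14.

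Members differed in which samples were highest, and these patterns cut across the classes. Sham replicates 1 and 3 were the 2 highest samples in 16 of the 50 members (32%, beside 18.9% of all genes tested), which included Col4a1, Col4a2, Col18a1, all 3 type V chains, Col8a1, Col12a1, Col14a1, Serpinh1, Lox, P4ha1 and P4ha3. PRATA replicate 3 and sham replicate 1, the pair that shared the 7SL pattern, were the 2 highest in 9 members (18%, beside 6.06%): Col1a1, Col3a1, Col15a1, Col6a1, Col6a2, Col10a1, Col20a1, Col4a5 and Pcolce. PRATA replicate 2 and sham replicate 1 were highest in 13 members (26%, beside 7.72%), among them Col4a3, Col4a4, Col2a1, Col16a1 and Plod2. PRATA replicates 1 and 2 were highest in 5 (10%, beside 7.65%): Col19a1, Col22a1, Col24a1, Col25a1 and Col6a5. Sham replicate 1 was thus among the 2 highest samples in each of the 3 most frequent patterns. With a covariate for the 7SL pair, all 7 lower and both higher members were called again, and Col11a1 was called lower as well. In that fit of the same 6 samples, 16% of members were lower, beside 9.56% of all genes, and 4% were higher, beside 7.4%.

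**Figure D3:**
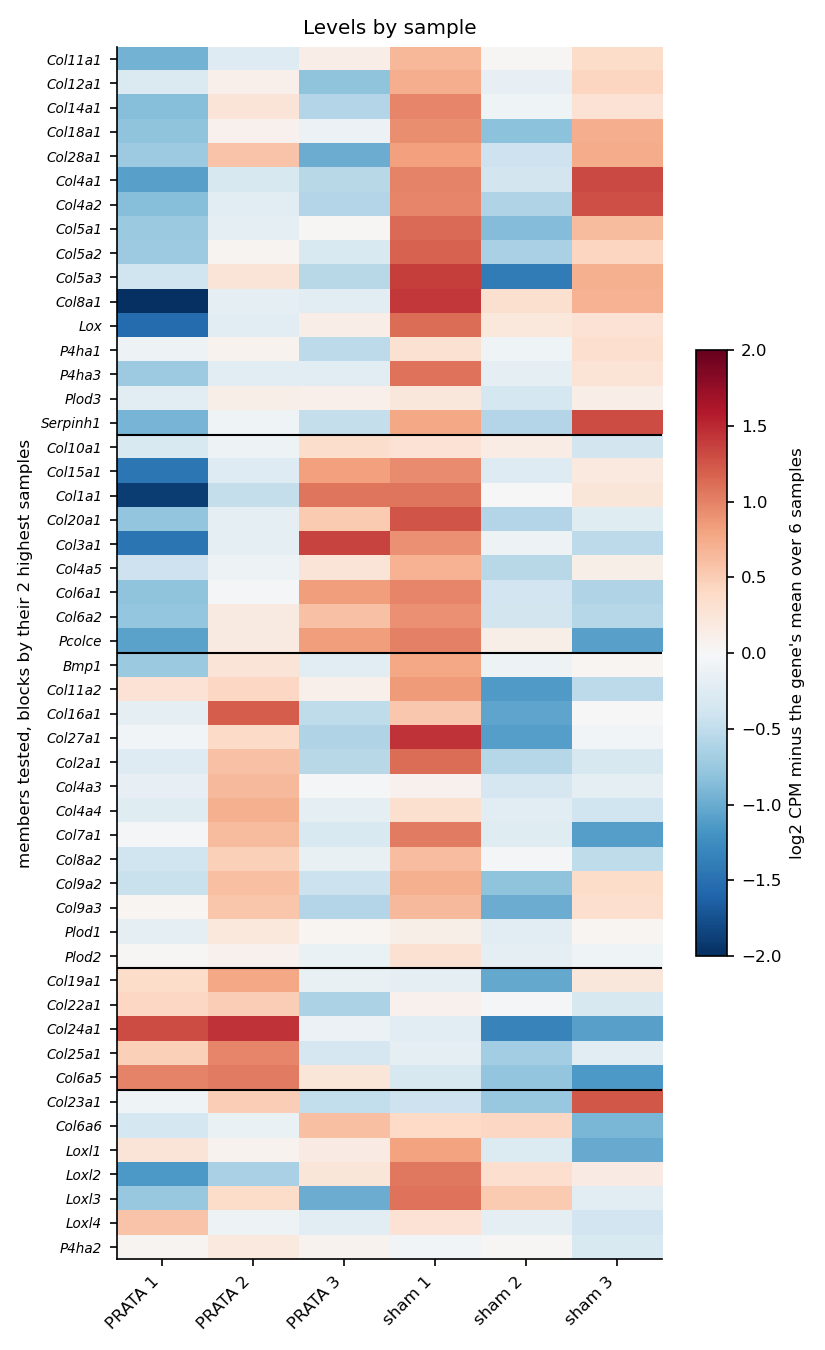
Log2 CPM of each tested member minus its mean over the 6 samples, with genes in rows, samples in columns and blocks set by the 2 highest samples. The block that is high in sham replicates 1 and 3 holds 16 members, and the block that is high in PRATA replicate 3 and sham replicate 1 holds 9, among them Col1a1 and Col3a1.

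Chains that assemble into 1 protein were compared as the log2 ratio of their counts within each sample, for 8 pairs, by exact two-sided permutation tests whose smallest possible p is 0.1 in groups of 3. Col8a1 over Col8a2 was -1.29, -0.29 and 0.30 in the PRATA samples and 1.17, 0.72 and 1.56 in the sham samples, so every ratio was lower after PRATA (exact p = 0.1, the smallest possible, and 0.533 with Benjamini-Hochberg adjustment over the 8 pairs). Col11a1 over Col11a2 overlapped between the groups, with -0.19 to 1.07 after PRATA and 0.85 to 2.20 after the sham operation (exact p = 0.2, adjusted 0.533). Col4a1 over Col4a2 stayed within 1.46 to 1.73 after PRATA and 1.71 to 1.93 after the sham operation (exact p = 0.2, adjusted 0.533). Col5a1 over Col5a2 and Col6a1 over Col6a2 each gave an exact p of 0.8 and overlapping ratios, with group means of 0.45 and 0.40 for the type V pair and -0.40 and -0.38 for the type VI pair. The other 3 pairs, Col4a3 with Col4a4, Col4a5 with Col4a6 and Col9a1 with Col9a2, also overlapped (exact p of 0.4 to 0.6).

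**Figure D4:**
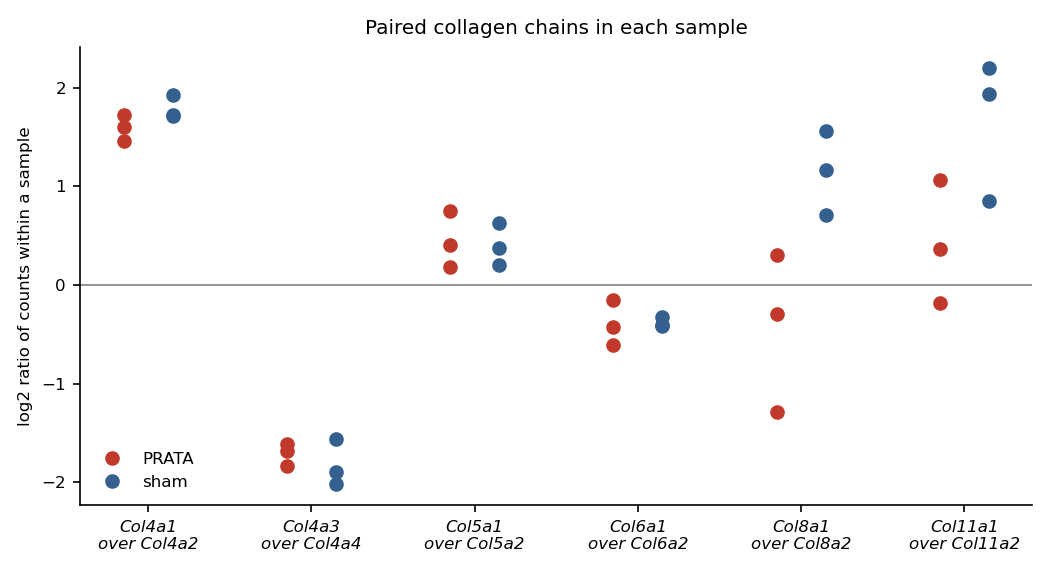
Log2 ratio of counts of paired collagen chains within each sample (pseudocount of 0.5) for 6 of the 8 pairs, with PRATA in red and sham in blue. The type VIII pair is the pair plotted whose groups do not overlap, from -1.29 to 0.30 after PRATA and from 0.72 to 1.56 after the sham operation.

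The isolated neurons also held RNA of other cell types that make collagen, and the lists of their markers differed in direction. The summed CPM of 18 fibroblast markers other than collagens was 488 to 921 after PRATA and 985 to 1582 after the sham operation, without overlap. Of the 16 that were tested, 4 were lower (Fbln2, Efemp1, Mfap4 and Ogn) and 0 higher at an unadjusted p under 0.05, beside 10.1% and 8.19% of all genes, and 13 had negative and 3 positive log2 fold changes. Tcf21, which was not tested, held 0 counts in the PRATA samples and 0, 6 and 1 counts in sham replicates 1, 2 and 3. Fbln2, a matrix protein of fibroblasts and other cells, made up 42.1% to 72.4% of this sum, and without it the sums overlapped, at 202 to 533 and 385 to 651 CPM. Dcn, the next in level, had a log2 fold change of -0.53. In bulk samples, fewer cells of a type and less RNA per cell cannot be told apart.

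The 6 satellite glia markers summed to 3029 to 5676 CPM after PRATA and 3972 to 7922 CPM after the sham operation, with sham replicates 1 and 3 highest as for Col4a1. All 6 had negative log2 fold changes and 0 passed the unadjusted threshold, with Apoe at -0.62 and Glul at -0.33. The sensory neuron markers moved the other way: all 18 had positive log2 fold changes, 5 were higher (beside 8.19% of all genes) and 0 lower, and their sums were 13910 to 21340 CPM after PRATA and 9764 to 14920 CPM after the sham operation. Nefm and Nefl, the neurofilament genes that led this sum, had log2 fold changes of 0.59 and 0.64. Sums of Schwann cell markers (1242 to 2310 and 1327 to 1806 CPM, with Pmp22 among the highest), endothelial markers (79.3 to 163 and 32.1 to 189, led by Cdh5 and Flt1), mural cell markers (218 to 314 and 164 to 358, led by Myh11 and Pdgfrb) and macrophage markers (70.7 to 214 and 56.8 to 127, led by Lyz2 and Ptprc) overlapped. Of these 4 lists, the Schwann cell list held 1 lower gene (Sox10, log2 fold change -1.63) and 2 higher genes (Prx, 1.39, and Cnp, 0.76) of 12. The endothelial list held 1 higher of 11 and the macrophage list 1 higher of 12, beside 10.1% lower and 8.19% higher among all genes. Log2 fold changes were positive in 8 of 12 Schwann cell, 10 of 11 endothelial, 6 of 10 mural and 9 of 12 macrophage markers tested. The medians of these lists were 0.34, 0.37, 0.21 and 0.57, in the same order.

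Relative to the fibroblast list within each sample, as the mean of log2(CPM + 1) of a class minus that of the fibroblast markers, the group difference changed from -0.20 to 0.27 in fibrillar collagens, from -0.38 to 0.09 in basement membrane collagens, from -0.07 to 0.40 in other collagens and from -0.32 to 0.15 in processing genes. These differences are descriptions, and all but that of the other collagens changed sign with single samples. Without sham replicate 2, the sample lowest beside the fibroblast markers, the differences were -0.17, -0.28, 0.22 and -0.04, in the same order. That of the other collagens was 0.22 to 0.605 over the samples left out. Without PRATA replicate 2 the basement membrane collagens stood at -0.04. The part of these cell types in the collagen values was not tested.

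**Figure D5:**
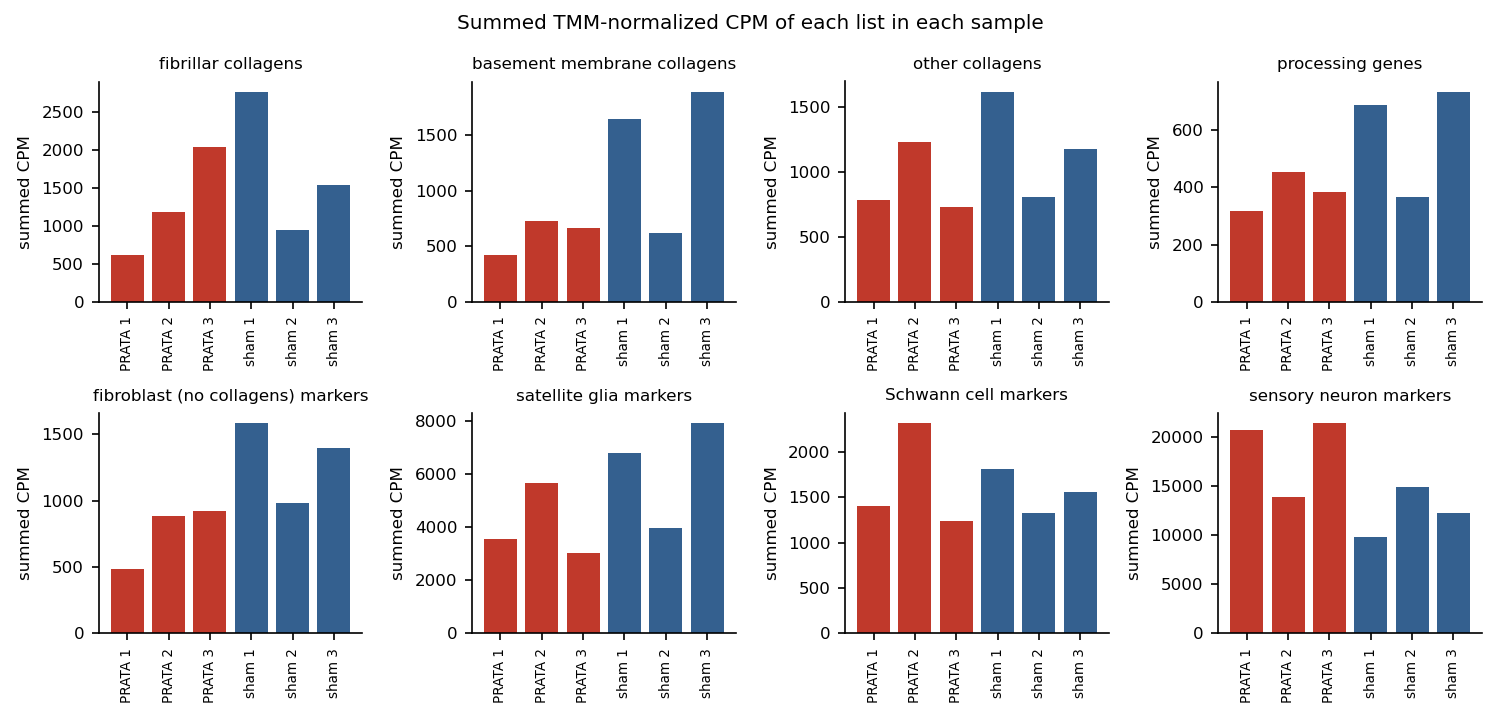
Summed TMM-normalized CPM per sample of the 4 classes of members and of 4 lists of cell type markers, with PRATA in red and sham in blue and each axis starting at 0. The fibroblast sums do not overlap between the groups, the basement membrane and satellite glia sums are highest in sham replicates 1 and 3, and the neuron sums are highest in PRATA replicates 1 and 3.

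A promoter window of 300 bases (250 before and 50 after the start, RefSeq on GRCr8) was at hand for 44 of the 56 members, and 5 motifs were searched on both strands. A gene was counted once where any of its windows held the motif. GGGCGG was found in 63.6% of these members and 36% of all 27457 genes with a window, and the median GC content was 61% over the members' windows and 51.7% over all windows. The members are protein-coding by the rule, while the 27457 genes were not filtered for protein-coding genes here, so the 2 sets can differ in kind. CCAAT was found in 25% of members and 39.6% of genes, TATAAA in 6.82% and 15.3%, ACGTG in 13.6% and 20.9%, and TGANTCA in 2.27% and 8.04%. Of the members printed above, Col4a1, Col4a2, Col8a1 and Serpinh1 held GGGCGG in these windows, and Col4a1, Col4a2 and Col6a5 held CCAAT. The genes for Col4a3 and Col4a4 are also head to head, on chromosome 9 with starts 413 bases apart, and both had overlapping groups with positive log2 fold changes. Col6a5 lies between Col6a6 and Col6a4, and of these neighbours Col6a6 was tested, with a log2 fold change of 0.03. Other neighbours were Col3a1 with Col5a2, at 0.11 and -0.79, and Col6a1 with Col6a2, at -0.04 and -0.05.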

How the data were processed

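RNA of isolated L1-L2 DRG neurons was converted to stranded libraries depleted of ribosomal fragments and sequenced in 3 PRATA and 3 sham samples. The deposited table holds raw counts per gene made by the authors, without normalization. The submitters' processing notes name STAR 2.7.3a, RSEM and DESeq2, while the methods describe HISAT2 and StringTie with FPKM values. The tool that made these counts, the strand setting, the genome build and the handling of reads shared by similar genes are not given in the sources used here.

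Groups came from the treatment labels. The analysis used edgeR 4.0.16 in R 4.3.3 (TMM, filterByExpr at its minimum count, 10, and minimum total, 15, quasi-likelihood test without covariate, two-sided, Benjamini-Hochberg adjustment over all genes tested). DESeq2 1.42.0 and limma 3.58.1 served as alternatives. CPM values are TMM-normalized. Figures were drawn with matplotlib 3.10.9. Floors of 3 counts cover counting error only, since reads are not independent molecules, and 3 to 6 members per sample had under 10 counts.

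Values in each sample are given for members with an unadjusted p under 0.05 or with groups that do not overlap and a mean of at least 5 CPM, and for a list of major collagens and enzymes whatever their result. From the pathway lists the 6 genes with the smallest p are named, and from each marker list the 2 with the highest mean, of which 1 is not reported here. The fibroblast genes Efemp1, Mfap4 and Ogn and the Schwann cell genes Sox10, Prx and Cnp were named after their values were seen. The class differences relative to the fibroblast markers without each sample were added after seeing the data. The members, lists and motifs were chosen with earlier results of these data known. Crtap, Mia3 and Pecam1 of the lists were not analysed here. Alternatives were scaling by DESeq2's size factors or by library size, a filter that was absent or asked for 10 counts in every sample, a robust fit, DESeq2 as the test, limma-trend (pseudocount of 1), limma voom with quality weights, a block for the replicate number, leaving out each sample, protein-coding genes only, the 4 samples outside the 7SL pair and a covariate for that pair.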

Additional observations from a re-analysis of the deposited data

How the results depend on the processing

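Over the 19 members named with values, 341 comparisons with an alternative setting were made: 279 kept direction and side of the unadjusted threshold, 30 lost it, 9 gained it and 23 turned direction. The number of lower members was 7 (14%, beside 10.1% of all genes), and 11 with DESeq2 (22%, beside 11%), 15 with limma voom (30%, beside 15.3%) and 2 with the replicate block (4%, beside 6.08%). It was 2 to 14 over the samples left out (3.77% to 27.5%, beside 5.44% to 14.1%). The number of higher members was 2 (4%, beside 8.19%), and 1 with at least 10 counts in every sample (2.08%, beside 8.81%) and 5 in the 4 samples outside the 7SL pair (9.62%, beside 5.98%). It was 2 to 4 over the samples left out (3.77% to 7.69%, beside 3.47% to 13.4%). Adjusted calls were 0, and 4 with DESeq2 (Col4a1, Col4a2, Col6a5 and Col8a1), 3 with limma voom (Col4a1, Col4a2 and Col6a5) and 1 in those 4 samples (Col6a5). Over all genes these settings called 0, 728, 1173 and 13. Over the samples left out there were 0 to 3 member calls, with 3 members and 721 genes called without sham replicate 2. The median of fibrillar collagens was -0.74 to 0.16 over the samples left out, and that of basement membrane collagens -0.92 with limma voom. Col3a1 turned to -0.19 with limma-trend, -0.42 with limma voom, -0.17 with the replicate block, -0.39 in the 4 samples and -0.11 with the covariate, and lay between -0.91 and 0.60 over the samples left out. Col6a1 turned to 0.029 with the block, 0.12 in the 4 samples and 0.026 with the covariate (-0.55 to 0.61 over the samples left out), and Col6a2 to 0.0058 with limma-trend, 0.048 with the block, 0.25 in the 4 samples and 0.056 with the covariate (-0.37 to 0.55). Plod2 turned to 0.18 in the 4 samples (-0.12 to 0.11 over the samples left out). The causes were not tested. Replicate numbers are shared between the groups, and after subtracting group means, samples that share a number correlated at -0.39, -0.11 and -0.36. These values were not compared with those of samples with different numbers, so they cannot decide whether the numbers pair the samples. Depth limits the members under 10 counts, most of all in PRATA replicate 1, sham replicate 2 and sham replicate 3.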
